A study of Caenorhabditis elegans with 32 samples.

Results

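The broad H3K27ac regions of WT embryos were 359 stretches of the genome in which acetylation of histone H3 at lysine 27 was enriched over 6 or more consecutive 500-bp windows. They were chosen from the WT libraries kept at 20 °C alone. Counts of each library were scaled by its nuclear total, and enrichment was defined per window as log2 of immunoprecipitated (IP) over input reads, after adding a pseudocount of 2 to each. A run was a set of adjacent windows with a mean WT enrichment of at least 1 and a mean scaled WT input of at least 10. Of 3759 such runs, 359 (9.55%) reached 6 windows and 3400 had 1 to 5 windows, here called narrow runs.

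ChIP-seq was performed on C. elegans early embryos isolated before the bean stage. The H3K27ac libraries came from 4 groups with 3 IP and 3 input replicates each. WT was the strain N2 (Bristol) at 20 °C, and HS was the same strain exposed to heat at 37 °C. The labels give 1 h of heat. For H3K27ac the study's main text gives a shorter time and an extended data caption the same time as the labels, so the duration is uncertain. The stress was applied to adults, from which embryos were then isolated. met-2Δ carried the deletion allele met-2(n4256) and met-2-CD the catalytically deficient allele met-2(gw1660), both at 20 °C, so each mutant was represented by 1 allele. The whole embryo was measured, so a change in every cell and a change in the share of cells carrying the mark cannot be told apart.

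H3K27ac is laid down by the CBP/p300 acetyltransferases and marks active promoters and enhancers. Runs of acetylated nucleosomes over several kilobases, rather than a single sharp peak, are known from mammalian cells at clusters of enhancers and at highly transcribed genes. MET-2 is the worm homologue of the mammalian methyltransferase SETDB1 and is needed for most H3K9me2, a mark of silent heterochromatin. The catalytic mutant separates this enzymatic role from other functions of the protein. Acetylation and methylation at these lysines typically occupy different chromatin.

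The H3K27ac IP libraries held 19327992 to 36470940 counted reads and the inputs 16899918 to 65133682. Replicates of 1 group correlated with a Pearson r between 0.901 and 0.982 over 36638 features. The 2 windows at III:8376567-8377566, inside the deletion of met-2Δ, had 0 input reads in every met-2Δ replicate and 177 to 297 in each replicate of the other groups. One library stood apart from its group: in met-2-CD replicate 3 the broad regions took 7.20% of the IP reads, against 4.86% and 4.82% in the other replicates. Comparisons of group means that include it are given with and without it where it moved them. Nothing in the labels says whether replicates came from separate cultures, and p-values measure only the spread between these samples.

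The broad regions covered 1652 kb, or 3304 windows, which was 1.65% of the nuclear windows and 28.6% of all windows in runs. Their median width was 3500 bp, with quartiles of 3000 and 5000 bp and a maximum of 20000 bp. The width distribution was skewed towards the threshold, since 108 regions had exactly 6 windows, 99 had 10 or more and 15 had 20 or more. The mean WT enrichment of a region, which the rule used, ranged from 1.09 to 2.33 with a median of 1.56, and the highest window of a region had a median of 2.03. When each region was cut into 3 equal sections, the highest window lay in the central one in 175 regions, and it was the first or last window in 6. The highest window was taken from the same WT values that set the borders, and the end windows lie next to windows below the cutoff. Its place inside the region is therefore largely built into the rule and is a description.

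The regions were spread over the genome, with a median distance of 161.5 kb between neighbours. In 52 cases another run began just 1 window away, and 9 pairs of neighbouring broad regions were separated by a single failing window. Chromosome I held 84 regions, II 68, III 56, IV 53, V 42 and X 56. Per megabase this was 5.57 on chromosome I, 3.16 on X and 2.01 on V. The central 50% of the chromosomes held 59.3% of the broad regions and 58.8% of the narrow runs, so the 2 classes were alike in this coarse position. The regions are given by position in ce10, because no ce10 gene annotation was used here.

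The threshold of 6 windows divided a continuum. The 204 runs of 5 windows had a median mean WT enrichment of 1.57, and so had the 108 runs of 6 windows. The 6-window regions with the lowest enrichment were V:8423940-8426939 (1.16) and I:2705990-2708989 (1.19). The 5-window runs with the highest, just outside, were IV:2387834-2390333 (2.20) and IV:1092840-1095339 (2.17). Beyond the borders, the first failing window had a median WT enrichment of 0.77, and 170 of 718 such windows were less than 0.1 short of the cutoff.

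The widest region, I:2825989-2845988, had 40 windows. Its H3K27ac level was 403.1, 422.7 and 371.1 scaled IP reads per window in the WT replicates. In HS it was 377.0, 471.7 and 384.6, in met-2Δ 314.1, 398.1 and 279.4, and in met-2-CD 317.8, 333.7 and 450.0. The groups overlapped in every pair. The next in width were III:2155594-2174093 with 37 windows, IV:16396274-16413773 with 35, V:1567470-1582468 with 30 and X:12170685-12184684 with 28. None of these 5 widest regions passed the test in any contrast between HS, met-2Δ and met-2-CD described below. Their log2 fold changes (log2FC) of HS over met-2Δ ran from 0.02 ± 0.36 (SE) on III to 0.33 ± 0.30 on X.

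**Figure D1:**
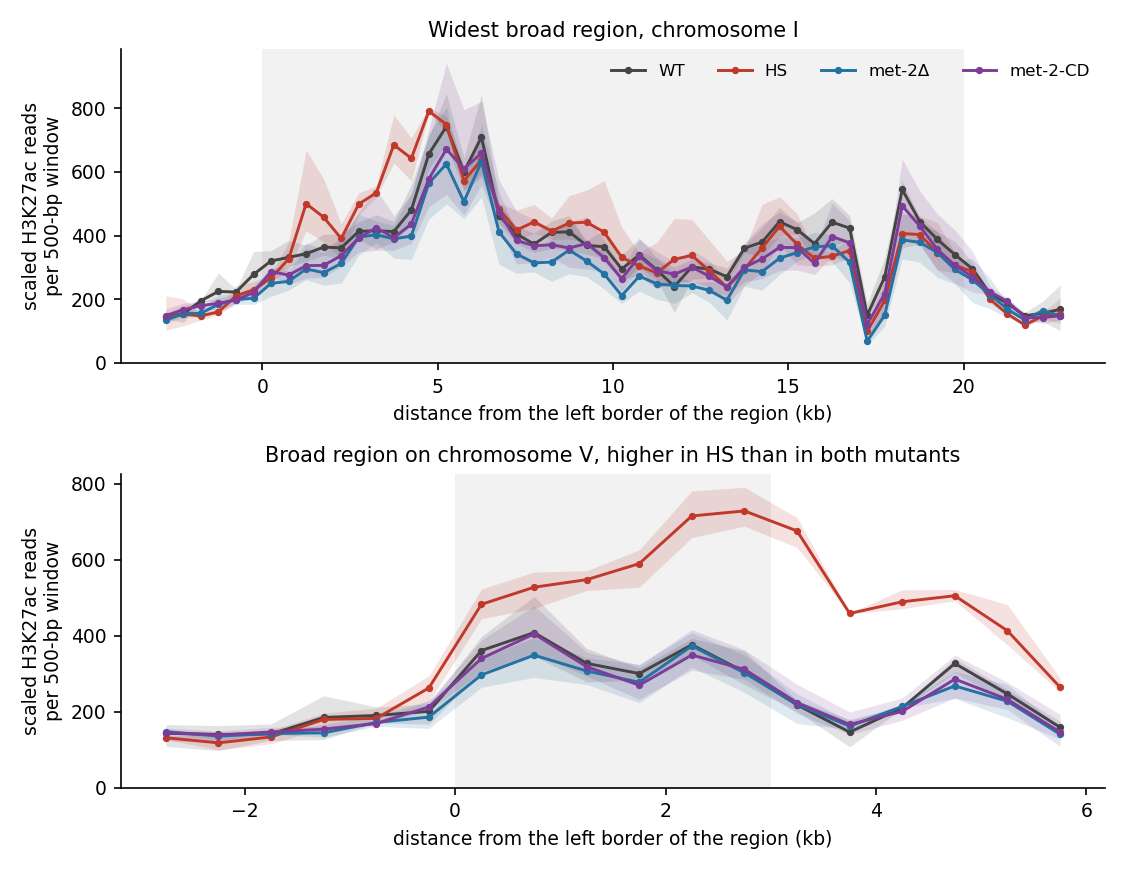
Scaled H3K27ac IP reads per 500-bp window (y axis) against the distance from the left border in kb (x axis) for the widest broad region and for the region V:8423940-8426939. Lines are means of 3 replicates and bands run from the lowest to the highest replicate; grey marks the region. In the upper panel window 8 stands at 685.0 in HS against 389.6 in met-2Δ, and in the lower panel HS lies above the other groups inside the region and to its right.

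In some wide regions single windows separated the groups where the total did not pass the test. In window 8 of the widest region, HS had a mean of 685.0 reads (627.4 to 779.2 over the replicates), met-2Δ 389.6 (329.0 to 432.4) and met-2-CD 393.5 (354.3 to 462.1). Toward its right end, at window 37, the HS mean of 406.4 (361.4 to 466.7) overlapped that of met-2Δ at 386.3 (327.0 to 476.9). Of these 2 windows, only the one on the left separated HS from met-2Δ.

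The second widest region, on chromosome III, held the opposite case. In its window 26 HS had 188.3 reads (163.3 to 214.4), met-2Δ 281.7 (246.6 to 340.7) and met-2-CD 352.7 (275.5 to 448.3). HS was the lowest group there, with no overlap, while the WT mean was 366.4. At window 7 of the same region, one of its summits, HS had 990.0 reads (960.7 to 1006.8), within the met-2Δ range of 672.7 to 1183.6. One interior window was thus lowest in HS, while HS and met-2Δ overlapped at this summit. These windows were chosen after their values had been seen.

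Whether the broad regions took the same share of IP reads in heat and in the mutants was asked first for whole libraries. Scaling by nuclear totals makes all levels here relative, so a change in total H3K27ac cannot be seen. By immunofluorescence or blots, the paper reported more total H3K27ac in met-2Δ embryos and after heat. In HS the regions held 6.23%, 6.91% and 6.11% of IP reads. In met-2Δ they held 4.76%, 5.76% and 4.12%, and every HS replicate lay above every met-2Δ replicate. In met-2-CD they held 4.86%, 4.82% and 7.20%, which overlapped HS.

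The mean share was 6.42% ± 0.43 (SD, n = 3) in HS and 4.88% ± 0.83 in met-2Δ, a difference of 1.53 percentage points (exact permutation test, two-sided, p = 0.1, the smallest that 3 against 3 allows). For HS and met-2-CD the difference was 0.79 points (exact permutation test, p = 0.4), and 1.57 points without met-2-CD replicate 3. Between met-2Δ and met-2-CD it was -0.75 points (exact permutation test, p = 0.5), and 0.04 points without that library. WT, which chose the regions, had 6.25%, 5.74% and 5.26%. With 3 libraries a group, none of these differences could pass a threshold below 0.1.

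The input libraries moved a little in the same direction. The regions held 1.96%, 2.00% and 1.85% of input reads in HS and 1.82%, 1.81% and 1.80% in met-2Δ, a difference of 0.13 points (exact permutation test, p = 0.1). Its part in the IP difference was not tested. After division by input, the median log2 enrichment of the regions was 1.62, 1.71 and 1.71 in HS and 1.34, 1.61 and 1.16 in met-2Δ, again without overlap. In met-2-CD it was 1.37, 1.34 and 1.91.

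**Figure D2:**
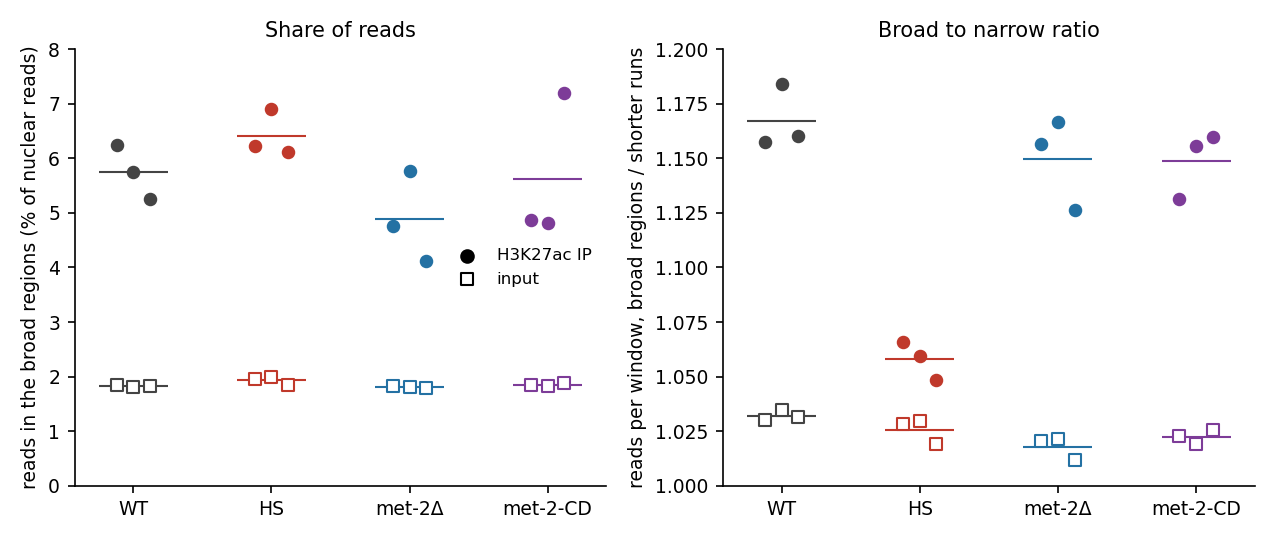
Left, percent of nuclear reads in the 359 broad regions (y axis) for each of the 4 groups (x axis); right, reads per window in broad regions divided by those in narrow runs, on an axis that starts at 1. Filled circles are IP libraries, open squares inputs and horizontal lines group means. The 3 HS libraries have the lowest IP ratios, 1.05 to 1.07, and met-2-CD replicate 3 has the highest share, 7.20%.

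HS was next compared with each mutant region by region, using edgeR's quasi-likelihood test on all 12 IP libraries with Benjamini-Hochberg adjustment over 36638 features. These features were the runs of any width and the rest of the genome in blocks of up to 6 windows. All 359 regions passed the filter on low counts. WT entered only the estimate of the spread, because its libraries had chosen the regions.

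At an adjusted p under 0.01, 53 broad regions (14.8%) were higher in HS than in met-2Δ and 0 were lower. Over all features 13.5% were higher and 27.1% lower, so the share of higher calls was near the background at this threshold. At an adjusted p under 0.05 it was not, with 132 regions (36.8%) against 18.7% of all features higher. An unadjusted edgeR p under 0.05 in either direction was reached by 162 of 359 regions, against 23192 of 36638 features, a larger share. Of the 3400 narrow runs 1733 were higher and 18 lower at an adjusted p under 0.01. The regions' median log2FC was 0.39 (quartiles 0.24 and 0.55), against -0.18 over all features and 0.50 over narrow runs, and 342 of the 359 were above 0. Replicates did not overlap in 222 regions (61.8%), with HS higher in each, against 67.7% of all features, of which 8303 were higher and 16508 lower in HS.

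The 53 called regions had log2FC from 0.57 to 1.02. With edgeR's TMM normalization, which moved the median over all features from -0.18 to -0.01, the regions' median was 0.56 and 48 were called, all among the 53. The TMM split over all features was 6933 higher and 4951 lower, against 4929 and 9939. The count fell to 14 (3.90%) without HS replicate 2 or without met-2Δ replicate 1, where 9.10% and 8.75% of all features were higher. It was 12 (3.34%, against 7.98%) without met-2Δ replicate 3 and 87 (24.2%, against 13.7%) without met-2Δ replicate 2. No broad region was lower in any of these fits.

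Against met-2-CD, 6 broad regions (1.67%) were higher in HS and 0 lower, where 8.18% of all features were higher and 10.3% lower. All 6 were among the 53. The regions' median log2FC was 0.20, that of all features -0.14 and that of narrow runs 0.29. Replicates did not overlap in 49 regions (13.6%, against 42.8% of all features), with HS higher in 47 and lower in 2. With TMM normalization 2 regions were called, both higher, and the split over all features was 3859 higher and 1518 lower, against 2997 and 3786. This contrast rests on met-2-CD replicate 3: without it 90 regions (25.1%) were higher and 0 lower, where 41.2% of all features were called, 4781 higher and 10303 lower, the median was 0.41, and replicates did not overlap in 323 regions (90.0%, against 75.0% of all features), with HS higher in 321. The count was 3 (0.836%) without HS replicate 1, where 2381 of 36638 features were higher. It was 1 (0.279%) without HS replicate 2, met-2-CD replicate 1 or met-2-CD replicate 2. In those fits 4.69%, 3.77% and 4.74% of all features were higher.

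**Figure D3:**
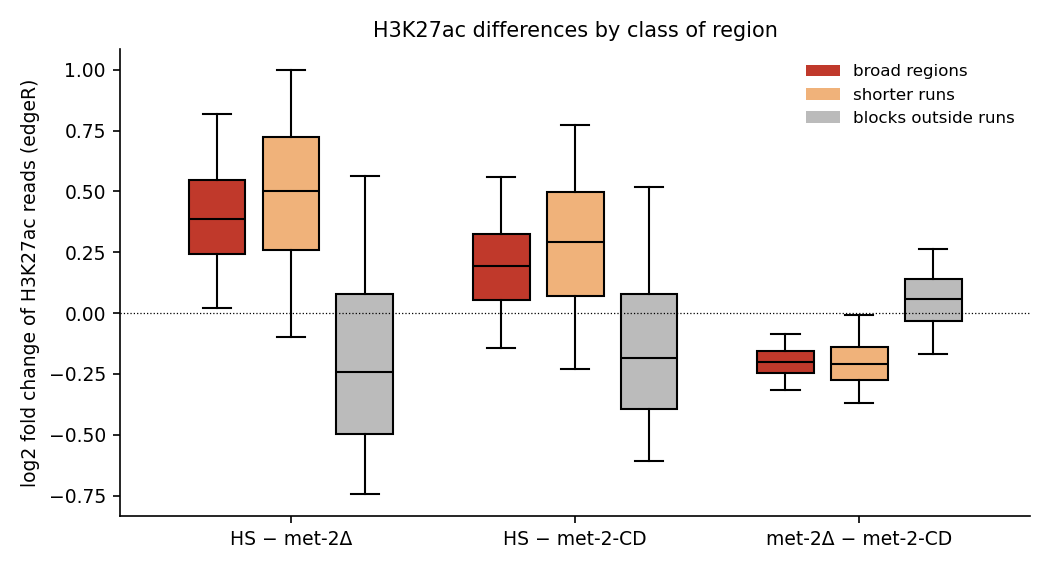
log2 fold change of H3K27ac IP reads from edgeR (y axis) for broad regions, narrow runs and blocks outside runs in the 3 contrasts without WT (x axis). Boxes span the quartiles around the median and whiskers the 5th to the 95th percentile. The broad regions sit at a median of 0.39, 0.20 and -0.20, between the narrow runs and the blocks in both contrasts with HS.

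The 6 regions higher in HS than in both mutants were on chromosomes II, IV and V. The lowest p-value in both contrasts was at V:8423940-8426939, the 6-window region with the lowest WT enrichment. It had 625.2, 588.0 and 581.8 reads per window in HS, 325.5, 357.7 and 269.8 in met-2Δ, and 301.3, 308.0 and 387.7 in met-2-CD. WT had 383.9, 332.6 and 322.5. HS lay far above the other 3 groups, which overlapped each other.

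Its log2FC was 0.91 ± 0.16 (SE) over met-2Δ (edgeR adjusted p = 0.000121) and 0.85 ± 0.16 over met-2-CD (edgeR adjusted p = 0.000481). Both calls were kept under all 11 alternatives that kept the regions fixed. The HS signal did not end at the WT border. In the first window to the right of it HS had 675.6 reads (631.9 to 710.7), met-2Δ 219.4, met-2-CD 223.9 and WT 218.1, and in the next HS had 458.6 against 146.5 in WT. Mean input in these 2 windows was 177.5 and 176.3 reads in HS and 149.9 and 149.2 in WT.

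At IV:16862772-16866271, with 7 windows, HS had 516.6, 754.3 and 553.2 reads per window. met-2Δ had 288.5, 333.8 and 275.8, met-2-CD 335.1, 290.5 and 472.5, and WT 403.0, 372.4 and 343.2. HS was again above all other libraries. The log2FC was 1.02 ± 0.19 over met-2Δ (edgeR adjusted p = 0.000217), the highest of any broad region, and 0.73 ± 0.19 over met-2-CD (edgeR adjusted p = 0.00562). The second call was lost in 6 of 11 alternatives.

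At IV:11080797-11083796, with 6 windows, HS had 766.7, 821.4 and 737.2 reads per window. met-2Δ had 395.6, 469.3 and 331.6, and met-2-CD 408.6, 390.3 and 557.1, all below HS. The log2FC was 0.96 ± 0.19 over met-2Δ and 0.78 ± 0.19 over met-2-CD (edgeR adjusted p = 0.000293 and 0.00318). The call against met-2-CD was lost in 3 of 11 alternatives.

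The other regions called in both contrasts were V:13786917-13790916, IV:15470778-15474277 and II:13458456-13462955. Their log2FC over met-2Δ was 0.99 ± 0.23, 0.92 ± 0.20 and 0.89 ± 0.20, and over met-2-CD 0.82 ± 0.23, 0.68 ± 0.19 and 0.74 ± 0.20. The widest of the 6 had 9 windows. At V:8532940-8535939, about as low in p against met-2Δ as the first region, HS had 342.2, 324.8 and 332.8 reads per window, met-2Δ 177.4, 220.1 and 165.0, and met-2-CD 208.6, 208.6 and 307.7. HS lay above both mutants in IP reads, and only the contrast with met-2Δ was called (log2FC 0.83 ± 0.15, edgeR adjusted p = 0.000125). For met-2-CD it was 0.46 ± 0.15 (edgeR adjusted p = 0.0159). Input was 114.7, 109.1 and 99.5 reads per window in HS and 90.3, 84.9 and 93.7 in met-2Δ. After division by input the log2 enrichment was 1.56, 1.56 and 1.72 in HS. This stayed above met-2Δ (0.96, 1.35 and 0.80) and overlapped met-2-CD (1.18, 1.10 and 1.57).

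Calls were fewer in wider regions. HS was called above met-2Δ in 22.2% of the 108 regions with 6 windows, 18.8% of the 112 with 7 to 8, 8.14% of the 86 with 9 to 12 and 1.89% of the 53 with 13 or more. The median log2FC of these classes was 0.42, 0.40, 0.38 and 0.35. The median SE was 0.18 in the narrowest class and 0.27 in the widest, so fewer calls in wide regions came with a larger error as well as a smaller difference. Replicates did not overlap in 65.7%, 63.4%, 60.5% and 52.8% of the 4 classes.

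The lead of broad regions over narrow runs was smaller in HS than in either mutant. The ratio of reads per window in broad regions to that in narrow runs was 1.07, 1.06 and 1.05 in HS, 1.16, 1.17 and 1.13 in met-2Δ, and 1.13, 1.16 and 1.16 in met-2-CD. Each HS library was below each mutant library, met-2-CD replicate 3 included. The difference was -0.0919 against met-2Δ and -0.0910 against met-2-CD (exact permutation test, two-sided, p = 0.1 for both, the smallest possible). Both kept their direction with each replicate left out, between -0.104 and -0.0835.

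The corresponding ratio in the input libraries was 1.01 to 1.03 in all groups, and its HS mean differed from that of met-2Δ by 0.00782 (exact permutation test, p = 0.3). met-2Δ and met-2-CD had nearly the same IP ratio (difference 0.000869, exact permutation test, p = 0.9). WT had 1.16, 1.18 and 1.16, but both classes were chosen by their width in WT, and no test was made. Per window, HS had 521.8 ± 35.0 reads (SD, n = 3) in broad regions and 493.2 ± 32.2 in narrow runs, and met-2Δ 397.1 ± 67.3 and 344.8 ± 52.8.

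Single windows showed how the difference was laid out. Of the 3304 windows, 1638 had every HS replicate above every met-2Δ replicate and 43 had every one below, together 50.9%. Over all 196122 windows with a mean input of at least 10 the share was 50.4%, close to that of the regions, but 27987 were higher and 70857 lower. Of the 8267 windows of narrow runs 5410 were higher and 107 lower. In 51 regions every window was higher in HS, in 176 a majority was, and 29 regions had no window of either kind. Windows of both kinds occurred in 13 regions, 4 of them among the 53 with 13 or more windows.

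Against met-2-CD, 526 windows were higher and 89 lower in HS without overlap, together 18.6% (against 31.4% of all windows). Without met-2-CD replicate 3 these were 2348 and 89, together 73.8% (against 58.5%). A window higher and another lower in HS were found together in 12 regions, and in 35 without that library.

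The mean outline of the regions was more alike between the mutants than between HS and either mutant. For each region the mean IP profile over its windows was correlated between groups. The median r over the 359 regions was 0.87 between HS and met-2Δ, 0.87 between HS and met-2-CD, and 0.97 between met-2Δ and met-2-CD. The highest window was the same in 211, 210 and 280 regions. The points are neighbouring windows that share mappability and base composition, and the values are a description.

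Single libraries give the error of this measure. Pairs of HS replicates had median r from 0.83 to 0.94 and pairs of HS with met-2Δ from 0.67 to 0.87, so the 2 ranges overlapped. Pairs of met-2Δ replicates had 0.93 to 0.95 and pairs of met-2Δ with met-2-CD 0.88 to 0.95. HS replicate 2 gave the low HS values. Without it the pair of HS replicates had 0.94, within the range of met-2Δ replicates, and the pairs with met-2Δ 0.82 to 0.87. The median r of the mean profiles was then 0.89 between HS and met-2Δ and 0.88 between HS and met-2-CD. The highest window had 1.32 to 1.39 times the mean of its region, as the median in each of the 12 libraries, with both ends of this range in met-2-CD (replicates 2 and 3).

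Among regions where the mutants shared their profile (r over 0.9), HS departed most at III:8354568-8359067, named after its values were seen. Its r was -0.22 between HS and met-2Δ and 0.93 between the mutants. In window 2 HS had 829.6 reads (794.9 to 858.6) and met-2Δ 467.9 (400.2 to 546.8), with no overlap. In window 4 HS had 593.1 (499.7 to 648.9) and met-2Δ 536.2 (485.2 to 606.2), which overlapped. The summit in the mutants lay in the middle of this region, and HS was highest toward its ends.

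At the borders the mean H3K27ac level stepped down from inside to outside over a few windows in all groups. The borders lie where the WT enrichment fell below the cutoff, so the WT step is built into the rule. The averages took 718 windows in the first position outside, 662 in the second and 625 in the fifth. In HS the mean was 427.9 ± 31.6 reads (SD, n = 3) in the first window inside, 298.3 ± 17.0 in the first outside and 230.7 ± 11.0 in the second. In met-2Δ these were 304.2 ± 46.7, 224.4 ± 23.97 and 189.6 ± 13.3, and in met-2-CD 347.3 ± 67.3 in the first window inside and 246.6 ± 31.4 in the first outside. The replicates of met-2-CD had 306.8, 310.1 and 424.9 reads in the first window inside, so the mean was raised by replicate 3. In the outermost window, 8 windows from the border, the groups ranged only from 147.1 to 152.5.

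The ratio of the 2 flanking windows on each side to the inside did not separate the groups. It was 0.51 ± 0.01 (SD, n = 3) in HS, 0.50 ± 0.06 in met-2-CD and 0.53 ± 0.04 in met-2Δ. The differences were -0.0184, 0.00731 and 0.0257 for HS and met-2Δ, HS and met-2-CD, and met-2Δ and met-2-CD (exact permutation tests, p = 0.6, 1 and 0.7). Each of them changed sign under at least 1 alternative. In the inputs this ratio was 0.96 ± 0.02 in HS and 1.01 ± 0.01 in met-2Δ (exact permutation test, p = 0.1), and its part in the IP ratio was not tested.

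**Figure D4:**
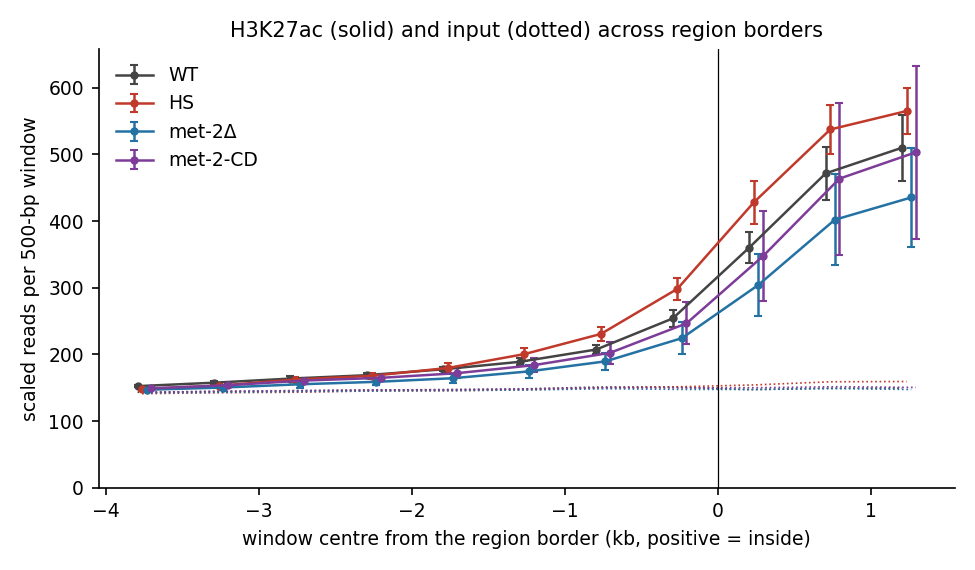
Scaled reads per 500-bp window (y axis) against the distance of the window centre from the region border in kb (x axis, positive inside). Values are averages over the borders of the 359 regions, which were set on WT. The positions outside average 625 to 718 windows. Solid lines are H3K27ac IP means of 3 replicates with SD bars and dotted lines input means. The groups meet outside, at 147.1 to 152.5 IP reads, and HS is the highest in the first window inside at 427.9.

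The mutants were compared with each other to ask whether losing the protein and losing its catalytic activity left these regions in different states. No broad region passed in either direction (edgeR), against 0.0246% of all features higher in met-2Δ and 0.00273% lower. At an unadjusted p under 0.05 there were 2 regions, against 1607 of 36638 features, and DESeq2 also called 0. The median log2FC was -0.20 and 3 regions were above 0, but without met-2-CD replicate 3 the median was 0.01 and 215 were above 0. A difference between the mutants was therefore not detectable with these replicates. The median SE of a region was 0.20, which limits what a single region can show.

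Against WT only values are given for the chosen regions, because the WT libraries selected them. They are relative to the total of each library, and a value below 0 does not measure a fall in total acetylation. The median log2 ratio of mean IP reads over WT was 0.15 in HS, -0.22 for met-2Δ and -0.03 for met-2-CD, and 293, 1 and 115 regions were above 0. The met-2-CD median was -0.25, with 0 regions above 0, when replicate 3 was left out. All windows of a region had an enrichment of at least 1 in 243 regions (67.7%) in HS, 167 (46.5%) in met-2-CD and 63 (17.5%) in met-2Δ. In met-2-CD without replicate 3 this held in 68 (18.9%). By the rule every window has this enrichment in the WT mean, so lower counts in other groups follow in part from the choice. The region mean was at or above 1 in 357 in HS, 355 in met-2-CD (340 without replicate 3) and 341 in met-2Δ. For narrow runs the median over WT was 0.27 in HS, -0.22 for met-2Δ and -0.01 for met-2-CD (-0.22 without replicate 3).

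For a test against WT libraries not used to choose the regions, they were chosen on 2 WT pairs, and the IP library of the remaining WT pair was the only WT library in the fit, for each of the 3 choices. This gave 325, 371 and 403 broad regions. HS was higher than the held-out WT library in 0, 1 and 0 of them and lower in 0 (edgeR), where 1.49%, 1.63% and 1.79% of all features were called. The medians were 0.04, 0.19 and 0.29. With 1 WT library in the fit, the lone sample was assumed to vary like the other groups.

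For met-2Δ the median log2FC over the held-out WT library was -0.34, -0.20 and -0.09, and for met-2-CD -0.15, -0.00 and 0.10. Neither mutant had a call in any of the 3 choices (edgeR), where 0.0164%, 0.00271% and 0.00542% of all features were called for met-2Δ and 0.00545%, 0.00271% and 0.00271% for met-2-CD. Each fit held 1 WT library, so the medians are given as sizes of the difference. These medians rested on single libraries. Without met-2-CD replicate 3 those of met-2-CD were -0.35, -0.23 and -0.11, all below 0, and without met-2Δ replicate 3 the last met-2Δ median was 0.02.

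By chromosome, HS was called above met-2Δ in 12 regions on I, 8 on II, 12 on III, 11 on IV, 9 on V and 1 on X. This was 1.79% of the 56 X regions and 11.8% to 21.4% of those on each autosome. Over all features the share called higher was 6.63% on X and 9.15% to 21.2% on the autosomes, and over narrow runs 26.4% and 46.9% to 62.5%, so calls were fewer on X in these classes too. The median log2FC was 0.37 on X, against 0.35 to 0.43 on the autosomes. The difference between chromosomes was not tested.

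H3K9me2 was measured in separate libraries of N2 early embryos at 20 °C and 37 °C, with 2 IP and 2 input replicates each. The inputs differed in their share of mitochondrial reads, from 4.44% to 45.0%, and in depth, from 9928436 to 89301222 reads. The median H3K9me2 log2 enrichment of the broad regions was 0.37 and -0.01 at 20 °C, and 0.17 and 0.35 at 37 °C. The replicates at 20 °C differed more than the temperatures did. The mean difference was 0.08 (exact permutation test, p = 1, where 2 against 2 cannot go below 0.33), and it changed sign under 3 alternatives.

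Although H3K9me2 marks silent chromatin, its medians in broad H3K27ac regions were above those of the rest of the genome. At 20 °C the blocks outside runs had medians of -0.45 and -0.27 and the narrow runs -0.17 and -0.27, below the broad regions in each library. At 37 °C the blocks had 0.02 and 0.24 and the narrow runs 0.02 and 0.19, again lower. The levels themselves were low: 6 of the 359 regions (1.67%) and 84 of the narrow runs (2.47%) had an H3K9me2 enrichment of at least 1 in both replicates at 20 °C, and 1 broad region had at 37 °C. Of 29710 blocks outside runs, 4.21% had at 20 °C and 2.33% at 37 °C, so strongly marked features made up a larger share of the blocks than of the broad regions, although the blocks' medians were lower.

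At 20 °C the median H3K9me2 was higher in wider H3K27ac runs. In the first replicate the median was -0.34 for runs of 1 to 2 windows, 0.29 for 6 windows and 0.50 for 13 or more, and in the second -0.32, -0.11 and 0.14. At 37 °C the steps were smaller, from -0.01 to 0.26 in the first replicate and from 0.18 to 0.32 in the second. The interquartile range of narrow runs was wide, from -1.46 to 0.42 for 1 to 2 windows in the first replicate at 20 °C. The order is a description, and an average over more windows varies less.

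**Figure D5:**
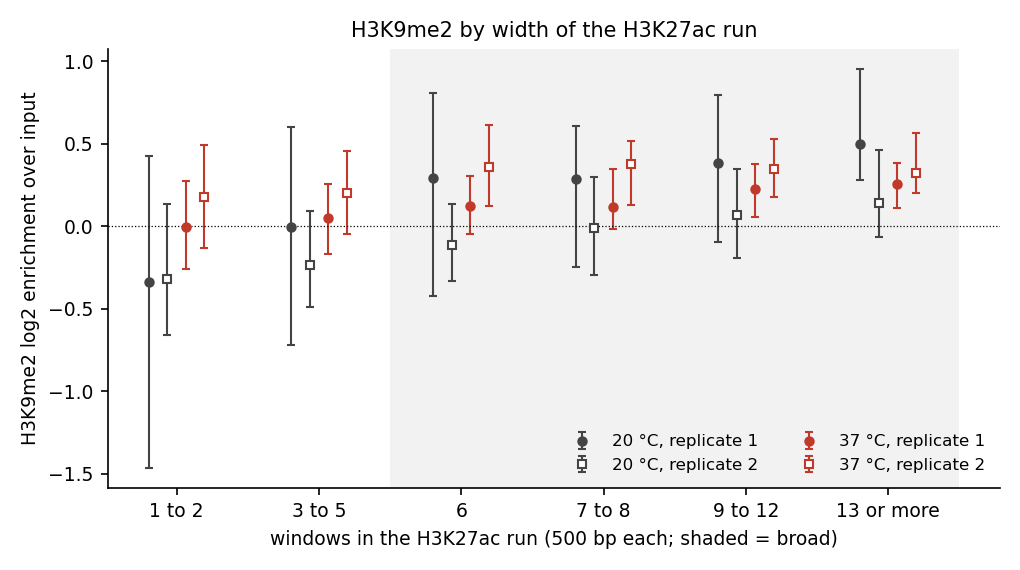
H3K9me2 log2 enrichment over input (y axis) by the number of 500-bp windows in the H3K27ac run (x axis), for 2 replicates at 20 °C and 2 at 37 °C. Points are medians over runs, bars the quartiles, and the shaded classes are broad regions. The medians at 20 °C climb from -0.34 and -0.32 to 0.50 and 0.14, and those at 37 °C change less.

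The regions with the highest H3K9me2 at 20 °C were I:14225441-14228439 and III:7708570-7712069. The first had an H3K9me2 enrichment of 1.58 and 1.247 at 20 °C and 1.04 and 1.08 at 37 °C. The second had 1.29 and 1.55 at 20 °C and 0.53 and 0.40 at 37 °C. Both were picked as extremes at 20 °C, so lower values at 37 °C follow in part from the choice and are a description. The regions were acetylated in WT, at 382.2, 433.8 and 349.7 and at 484.1, 406.0 and 388.6 H3K27ac reads per window.

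At III:7708570-7712069 the H3K27ac level was 607.6, 734.5 and 569.7 reads per window in HS and 361.1, 435.4 and 324.3 in met-2Δ. HS lay above met-2Δ in all replicates, with a log2FC of 0.77 ± 0.21 (edgeR adjusted p = 0.00305). At I:14225441-14228439 it was 434.9, 483.1 and 404.9 in HS and 314.9, 379.5 and 285.1 in met-2Δ, also without overlap, but the log2FC of 0.43 ± 0.16 missed the threshold (edgeR adjusted p = 0.0261).

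Among the broad regions the lowest H3K9me2 was at I:9412461-9415460, with -3.26 and -0.54 at 20 °C, and at IV:8780807-8786306, with -1.76 and -0.93. At 37 °C these regions, also picked at 20 °C, had 0.14 and 0.27, and -0.15 and 0.06. The first had 554.3, 475.2 and 557.5 H3K27ac reads per window in HS and 478.6, 645.1 and 441.5 in met-2Δ, which overlapped. The regions were also split by H3K9me2 at 20 °C, from lowest to highest, into groups of 90, 90, 89 and 90. The median log2FC of HS over met-2Δ was 0.32, 0.34, 0.45 and 0.44. Called higher in HS were 8, 10, 19 and 16 regions, against 14.8% of all broad regions and 13.5% of all features. The difference between these groups was not tested. Across the 359 regions the Spearman correlation of H3K9me2 with this log2FC was 0.27. It is given as a description, since regions differ in width, depth and base composition.

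The broad region with the highest WT enrichment was III:1617596-1620595, at 2.33. The highest narrow run had 2.49. III:1617596-1620595 had 713.7, 874.8 and 694.6 H3K27ac reads per window in WT, 756.1, 996.8 and 828.9 in HS, 571.8, 904.3 and 524.4 in met-2Δ and 625.0, 737.6 and 989.9 in met-2-CD. At this broad region all groups overlapped, and no contrast passed the test. The next broad region, IV:17276770-17279769, had 870.5, 864.3 and 851.7 in HS and 553.4, 766.8 and 474.4 in met-2Δ, without overlap. It missed the threshold as well (log2FC 0.53 ± 0.22, edgeR adjusted p = 0.042). After division by input its log2 enrichment was 2.30, 2.29 and 2.41 in HS and 1.83, 2.38 and 1.70 in met-2Δ, which overlapped.

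The least enriched broad regions were V:7741443-7745442 and II:4578994-4582493. The second had 417.1, 431.1 and 377.0 reads per window in HS, 269.6, 289.9 and 210.8 in met-2Δ, and 267.9, 234.4 and 348.9 in met-2-CD. HS lay above both mutants, and the contrast with met-2Δ was called (log2FC 0.67 ± 0.17, edgeR adjusted p = 0.00213). V:7741443-7745442 had 404.9, 461.8 and 381.0 in HS and 301.5, 353.8 and 275.3 in met-2Δ, and was not called (log2FC 0.42 ± 0.17, edgeR adjusted p = 0.0398). Across all 359 regions the log2FC of HS over met-2Δ had a Spearman correlation of 0.00 with the WT enrichment and of -0.10 with width, both descriptions.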

How the data were processed

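The authors mapped paired-end reads to ce10 (QuasR, bowtie), retained unique alignments, and the deposited values are raw counts per 500-bp window, 1 column per library. Both mates are counted, so reads are not independent molecules. From these counts, libraries were scaled by their nuclear totals, and the mitochondrial genome (28 windows) was left out. Tests across features used edgeR 4.0.16 under R 4.3.3 (quasi-likelihood, library sizes equal to nuclear totals, features with a mean scaled IP count of at least 10, adjusted p under 0.01), and 268 features fell below the filter. DESeq2 1.42.0 was an alternative. Levels per library were compared with exact permutation tests in Python 3.11.15. The regions and tests were chosen with earlier results of these data known. The regions named in the text are the 5 widest, the called regions with the lowest p-values whose replicates did not overlap, those at the width threshold, and the extremes of H3K9me2 and of WT H3K27ac. Those called in both contrasts and the single windows were named after seeing their values. The planned lists of genes were not used, because no ce10 annotation was used here, and no sequence is shown.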

Additional observations from a re-analysis of the deposited data

How the results depend on the processing

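The direction of HS over met-2Δ in the broad regions was kept by the median in all 16 alternatives, and its count moved: 12 calls for runs of 8 or more windows (6.82%, against 13.5% of all features higher), 132 at an adjusted p under 0.05 (36.8%, against 18.7%), 96 with DESeq2 (26.7%, against 23.1%), 21 for a stricter WT enrichment (10.4%, against 14.0%), 139 for a looser one (138 higher, 21.6%, against 12.7%), and 12 to 87 with 1 replicate left out (3.34%, against 7.98%, to 24.2%, against 13.7%). For HS against met-2-CD the main count was 6 (1.67%, against 8.18% of all features higher). It was 2 for 8 or more windows (1.14%, against 8.18%) and 37 at 0.05 (10.3%, against 13.9%). TMM and background scaling gave 2 each (0.557%, against 10.5% and 8.65%), and DESeq2 gave 10 (2.79%, against 14.6%). The looser enrichment gave 34, with 32 of 640 higher and 2 lower, against 8.02% of all features higher. Runs joined over 1 failing window gave 16, with 14 higher (3.33%, against 8.17%) and 2 lower. With 1 replicate left out the counts ran from 1 (0.279%, against 3.77% to 4.74%) to 90 (25.1%, against 4781 of 36638 features higher). With the replicate number as a block the counts were 37 (10.3%, against 12.0%) for HS against met-2Δ and 2 (0.557%, against 6.65%) for HS against met-2-CD. Same-numbered replicates did not deviate together in every pair (lowest r 0.04 for HS and met-2Δ and -0.33 for HS and met-2-CD). For HS and met-2Δ the mean r was 0.28 for equal and -0.13 for different numbers. There 2 of 3 HS libraries correlated best with their own number in met-2Δ. For HS and met-2-CD the mean r was -0.15 and 0.10. Whether the numbers pair the samples is not known from these values. The calls between the mutants stayed at 0 throughout.

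For HS against the held-out WT the mean percent called was 0.0898, with 0, 0.27 and 0 for the single choices, 0 with TMM, 0 with background scaling and 0 to 0.0898 with 1 HS replicate left out. Signs changed between the mutants without met-2-CD replicate 3 for the median log2FC (0.0148; range -0.33 to 0.0148 over replicates left out) and the share of reads (0.0392; -1.19 to 0.0392), and for the broad to narrow ratio over replicates left out (-0.00797 to 0.0126). The flank ratio changed sign with 1 flanking window for HS and met-2Δ (0.00308; -0.0392 to 0.00231 over replicates left out), with 4 for HS and met-2-CD (-0.0129; -0.0274 to 0.0279), and over replicates left out for the mutants (-0.00909 to 0.0465). Medians over the held-out WT changed sign for HS in the first choice over replicates left out (-0.00626 to 0.0599), for met-2-CD in the second with TMM (0.00884), with background scaling (0.0106) and over replicates left out (-0.23 to 0.099) and in the third (-0.11 to 0.20), and for met-2Δ in the third (-0.22 to 0.016). The H3K9me2 difference changed sign with background scaling (-0.26) and over replicates left out (-0.11 to 0.27). The cause was not tested. Precision was limited by 3 replicates a group, and by 2 for H3K9me2. Leaving out met-2-CD replicate 3 for counts without overlap, values over WT and borders, and HS replicate 2 for profiles, was chosen after seeing the data.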
